A study of Mus musculus with 9 samples.

Results

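A group of 47 protein-coding genes was set apart in thymic invariant natural killer T (iNKT) cells by being lower in *Med23*-deficient stage 2 cells than in WT cells of either stage. The genes were chosen by their measured values. A member had a mean log2(FPKM + 1) in *Med23*-deficient stage 2 cells that lay at least 0.8 below the mean of WT stage 2 cells and at least 0.8 below the mean of WT stage 3 cells, and its highest *Med23*-deficient value lay below the lowest of its 6 WT values. FPKM is the number of fragments per kilobase of transcript and per unit of mapped reads. The 47 members came from 12600 eligible genes of a table of 21883 rows (0.373% of those eligible), after rows that are not protein_coding, rows on chromosomes X and Y, and the *Hist* and *Klr* genes had been left out. Because all 9 libraries were used to choose them, the difference between *Med23*-deficient and WT cells is given below as a description, without a test.

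RNA was sequenced from iNKT cells of C57BL/6 mice in 3 groups of 3 libraries: *Med23*-deficient stage 2, WT stage 2 and WT stage 3. The WT mice were 6 weeks old, and the labels give no age for the *Med23*-deficient mice. The deletion is conditional: Cre recombinase under the *Cd4* promoter removes loxP-flanked *Med23* in thymocytes from the CD4+CD8+ stage on, so it is not restricted to iNKT cells, and the controls lack it. Cells were sorted with a CD1d tetramer as CD24lo CD44hi cells, stage 2 being NK1.1lo and stage 3 NK1.1hi. *Med23*-deficient stage 3 cells were not analysed here. The *Med23*-deficient samples carry a separate, later run of sample numbers than the WT samples. The labels used here name no batch, so genotype and a possible batch that follows this split cannot be told apart. The labels do not say that replicates came from separate mice, so the p-values below measure the spread between these libraries.

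iNKT cells are T cells with a semi-invariant receptor that recognise lipids on CD1d. They mature in the thymus, where stage 2 cells hold precursors and cells that make IL-4 or IL-17, and stage 3 cells acquire NK receptors, granzymes and the capacity to make IFN-γ. Med23 is a subunit of Mediator, the complex that links transcription factors bound to DNA with RNA polymerase II. Integrins, one of the families in the group, are pairs of an α and a β chain that hold cells to matrix and to other cells, and their tails are tied to actin by adaptor proteins.

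The targeted gene itself was read first. *Med23* was at FPKM 5.51, 5.15 and 6.74 in WT stage 2, at 7.14, 4.44 and 6.12 in WT stage 3, and at 4.80, 3.6 and 3.92 in *Med23*-deficient cells. The *Med23*-deficient values were the lower ones on average (4.11 ± 0.621 against 5.80 ± 0.834 in WT stage 2, SD, n = 3), but the highest of them lay above the lowest WT stage 3 value, and a value for the whole gene does not show the state of the deleted exons. Of 10 T cell genes, among them *Cd3e* and *Lck*, every one was above 0 in all libraries, with a summed FPKM of 882 to 924 in WT stage 2, 745 to 868 in WT stage 3 and 895 to 1014 in *Med23*-deficient cells. The number of genes above 0 ran from 15584 to 17333 per library and was highest in *Med23*-deficient replicate 3, which was also the highest of the 3 *Med23*-deficient libraries for 28 of the 47 members (13 for replicate 2 and 8 for replicate 1). The gene model *Gm23935* alone held 62.9 to 69.8% of the summed FPKM in WT libraries. In *Med23*-deficient replicates 1 to 3 it held 70.8, 71.9 and 62.2%. In bulk RNA, fewer cells of one kind and less RNA per cell cannot be told apart.

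To show what lies upstream of these genes, the RefSeq promoter (GRCm38.p6, 250 bases before to 50 after the annotated start) was looked up for each member. It was found for 36 of the 47. The 5 below belong to members described in detail. They are the promoters of *Itga4* (integrin), *Adam19* (metalloprotease), *Prf1* and *Gzmb* (cytotoxic effectors) and *Il18rap* (IL-18 receptor chain). Each is written 5′ to 3′ on the gene's strand, and capitals mark a GC box (GGGCGG), an AP-1 site (TGAGTCA), a Runx core (TGTGGT) or a cell cycle homology region (TTTGAA), or the reverse complement of one of these.
Itga4, chr2:79255176-79255475, plus strand: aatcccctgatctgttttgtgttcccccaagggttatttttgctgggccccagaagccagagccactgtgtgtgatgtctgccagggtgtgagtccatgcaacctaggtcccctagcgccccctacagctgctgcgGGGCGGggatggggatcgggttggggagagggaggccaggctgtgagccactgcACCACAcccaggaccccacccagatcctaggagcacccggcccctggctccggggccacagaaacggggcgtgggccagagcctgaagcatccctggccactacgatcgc
Adam19, chr11:46055734-46056033, plus strand: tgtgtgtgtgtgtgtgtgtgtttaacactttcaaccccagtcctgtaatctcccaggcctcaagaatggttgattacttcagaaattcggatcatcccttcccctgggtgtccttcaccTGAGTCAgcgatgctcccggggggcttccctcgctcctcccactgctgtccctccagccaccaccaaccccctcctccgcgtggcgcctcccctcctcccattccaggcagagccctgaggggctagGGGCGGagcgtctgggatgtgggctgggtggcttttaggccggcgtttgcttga
Prf1, chr10:61297586-61297885, plus strand: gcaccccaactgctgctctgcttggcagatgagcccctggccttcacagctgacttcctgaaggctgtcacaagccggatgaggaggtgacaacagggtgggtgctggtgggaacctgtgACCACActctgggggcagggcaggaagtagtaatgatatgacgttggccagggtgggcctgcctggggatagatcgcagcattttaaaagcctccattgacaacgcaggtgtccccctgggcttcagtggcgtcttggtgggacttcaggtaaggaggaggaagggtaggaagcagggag
Gzmb, chr14:56262285-56262584, minus strand: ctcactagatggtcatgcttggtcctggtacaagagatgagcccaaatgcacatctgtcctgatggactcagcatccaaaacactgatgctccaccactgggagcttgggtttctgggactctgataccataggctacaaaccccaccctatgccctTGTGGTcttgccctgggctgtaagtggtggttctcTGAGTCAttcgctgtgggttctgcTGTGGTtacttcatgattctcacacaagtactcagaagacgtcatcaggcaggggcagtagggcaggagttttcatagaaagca
Il18rap, chr1:40515112-40515411, plus strand: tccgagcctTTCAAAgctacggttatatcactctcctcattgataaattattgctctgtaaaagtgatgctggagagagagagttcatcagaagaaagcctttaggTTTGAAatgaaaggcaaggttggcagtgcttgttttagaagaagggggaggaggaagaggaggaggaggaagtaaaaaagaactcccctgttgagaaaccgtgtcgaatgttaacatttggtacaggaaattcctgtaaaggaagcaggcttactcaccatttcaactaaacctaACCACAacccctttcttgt

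The Runx core, the letters that Runx factors bind, was found on either strand in 9 of the 36 promoters (25.0%), against 16.9% of all 27025 mouse promoters in the table and 12.8% of the 9556 that belong to eligible genes. The 9 were those of *Ly6c2*, *Itga4*, *Prf1*, *Amica1*, *Wdr4*, *Il18rap*, *Gimap7*, *Gzmb* and *Gpr18*. The *Gzmb* promoter held it at 2 places, with the AP-1 site between them. AP-1 sites stood in 4 promoters (*Adam19*, *Wdr4*, *Atp8b4* and *Gzmb*), or 11.1% against 3.50% of eligible promoters. For *Wdr4* and *Atp8b4* the RefSeq start lies 7487 and 9121 bases from the start in the table, and for *Capg* 5256, so these 3 promoters may not be those of the transcripts measured. GC boxes were found in 44.4% of the members' promoters and in 63.2% of eligible ones, and the ETS core (CGGAAG) in 11.1% and 32.0%. CCAAT stood in 41.7% and 38.6%, TATAAA in 11.1% and 6.75%, TTTGAA in 11.1% and 12%, the E-box CACGTG in 5.56% and 9.83%, and the CRE TGACGTCA in none and 3.33%. Over all 27025 promoters, GC boxes stood in 35.9% and TATAAA in 14.2%, so for these motifs the direction depended on the comparison set. AP-1 sites stood in 5.17% of all promoters and the ETS core in 17.2%. These shares describe 300 bases per gene and were not tested. For members the listed start nearest the gene start was taken, and for the comparison sets the first listed start of each gene. The shares were thus not drawn in the same way. None of the 9 motifs was found in 5 of the members' promoters.

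The size of the difference varied widely among members. The drop, defined as the lower of the 2 WT means minus the *Med23*-deficient mean on the log2(FPKM + 1) scale, ran from 0.80 to 2.51 with a median of 1.03. It was at least 2 in 5 genes, from 1 to under 2 in 20 and under 1 in 22. Mean FPKM over the WT libraries ran from 1.47 to 150 with a median of 7.77, against a median of 3.43 over eligible genes. Although the genes were set apart as lost, 39 of the 47 stayed above 0 in all 3 *Med23*-deficient libraries, 3 were at 0 in 1 library, 4 in 2 libraries and 1 in all 3. The heat map of all members shows this gradation.

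**Figure D1:**
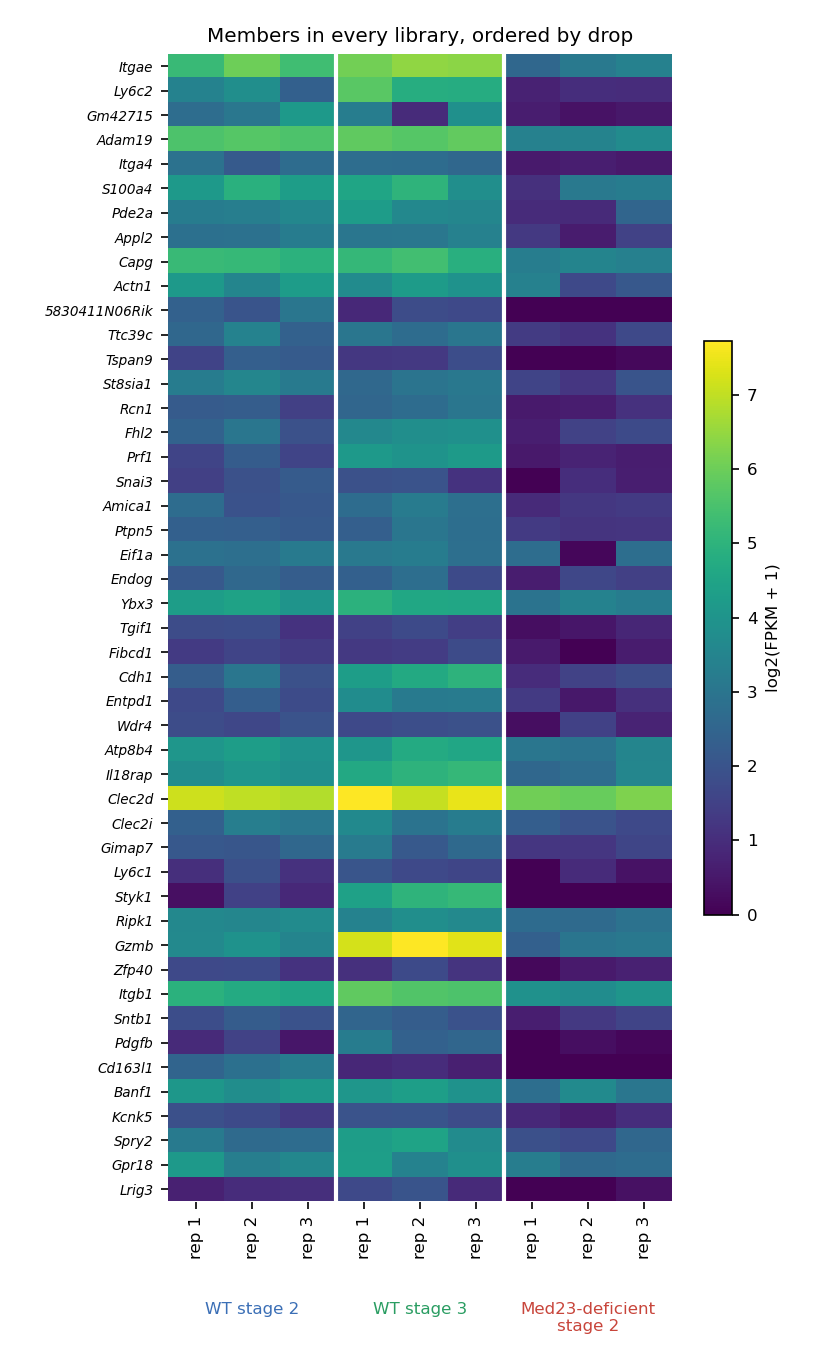
Colour gives log2(FPKM + 1) of the 47 members (rows, ordered from the largest drop to the smallest) in the 9 libraries (columns, in 3 groups of 3). The *Med23*-deficient columns are darker than the WT columns of the same row throughout, as the rule requires, while rows such as *Gzmb* and *Styk1* are far brighter in WT stage 3 than in WT stage 2 and rows such as *Cd163l1* are the reverse.

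Integrin chains held the largest drop of all. *Itgae* (chr11:73090583-73147446 in mm10, plus strand), which encodes integrin αE (CD103), the chain that with β7 binds E-cadherin, was at FPKM 36.3, 63.6 and 40.4 in WT stage 2, at 67.4, 85.4 and 83.0 in WT stage 3, and at 4.93, 7.63 and 9.49 in *Med23*-deficient cells. The highest *Med23*-deficient library lay well under the lowest WT library, and the mean was 6.36 times lower than in WT stage 2 and 10.7 times lower than in WT stage 3 (differences of −2.51 and −3.28 in log2(FPKM + 1)). *Itga4* (chr2:79255426-79333123), the α4 chain that pairs with β1 or β7 in binding VCAM-1 and MAdCAM-1, stood at 6.5, 3.59 and 5.66 in WT stage 2, at 5.82, 5.58 and 4.92 in WT stage 3, and at 0.46, 0.57 and 0.44 in *Med23*-deficient cells. The 3 low values of *Itga4* lay close together, within 0.12 in log2(FPKM + 1), and its WT groups overlapped. *Itgb1* (chr8:128685654-128733200), the β1 chain shared by many integrins, was at 29.7, 25.3 and 22.5 in WT stage 2, 56.0, 48.7 and 46.7 in WT stage 3, and 14.1, 12.4 and 15.4 in *Med23*-deficient cells, a smaller drop of 0.84 with none of the 3 groups overlapping.

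The other integrin genes did not follow as a family. Of 12 integrin genes reaching FPKM 2 in some library, 5 had every *Med23*-deficient value below every WT value, the 3 members with *Itga5* and *Itga6*, and 4 had every *Med23*-deficient value above every WT value (*Itgb2*, *Itgb7*, *Itgb3* and *Itga2*). Over eligible genes reaching FPKM 2, the shares were 2.7% below and 2.82% above. *Itgb7*, the β7 partner of both αE and α4, was at 61.9, 66.4 and 69.1 in WT stage 2, 62.9, 60.2 and 61.7 in WT stage 3, and 73.4, 82.5 and 74.2 in *Med23*-deficient cells, so the α chains were low in libraries where their β partner was not. *Itgb3*, the β3 chain, was high in both stage 2 groups (27.6 to 36.6 in WT and 39.6 to 46.4 in *Med23*-deficient cells) and at 1.99 to 4.88 in WT stage 3. The median difference between *Med23*-deficient and WT stage 2 cells over the 12 genes was −0.07. This family and those that follow were picked because they hold members, so their counts describe the members' surroundings.

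**Figure D2:**
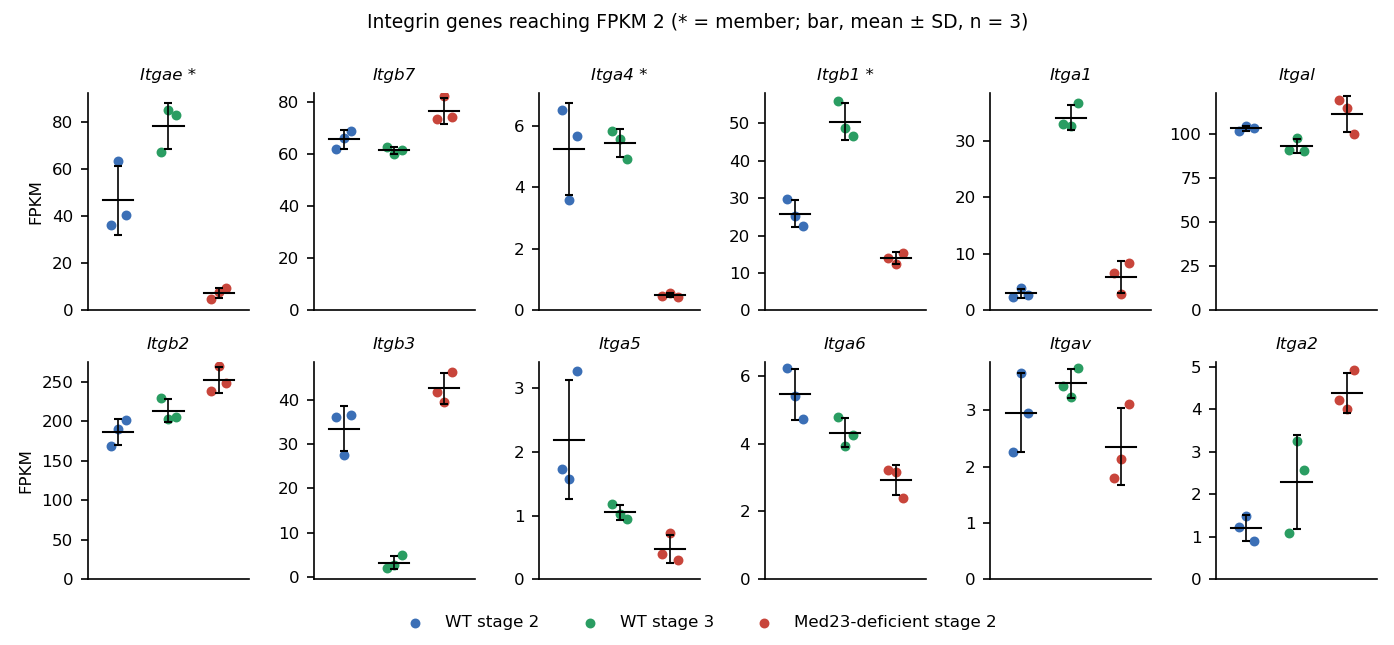
FPKM (linear axis, separate for each panel) of the 12 integrin genes reaching FPKM 2, with 1 point per library and bars for the mean ± SD of the 3 libraries in each group (blue and green WT stages 2 and 3, red *Med23*-deficient). *Itgae*, *Itga4* and *Itgb1* (asterisks) are lowest in the *Med23*-deficient libraries, whereas *Itgb7*, at 73.4 to 82.5 there, lies above its WT range of 60.2 to 69.1.

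Other adhesion molecules, a surface protease and proteins of the cell cortex stood beside the integrins. *Adam19* (chr11:46055992-46147343), a membrane-bound metalloprotease that cleaves other surface proteins, was at 46.9, 50.9 and 46.3 in WT stage 2, at 56.9, 51.1 and 57.0 in WT stage 3, and at 9.43, 9.95 and 12.3 in *Med23*-deficient cells. Each *Med23*-deficient library was under 13 and each WT library over 46, a mean 4.55 times lower than in WT stage 2. Of 6 *Adam* genes reaching FPKM 2, no other member was found. The related sheddase gene *Adam10* was at 27.0 to 28.0 in WT stage 2 and at 20.3 to 24.2 in *Med23*-deficient cells. *Cdh1* (chr8:106603351-106670246), which encodes E-cadherin, the ligand of αEβ7, was at 3.85, 7.17 and 2.74 in WT stage 2, at 18.6, 24.7 and 30.9 in WT stage 3, and at 0.98, 1.90 and 2.48 in *Med23*-deficient cells. The *Med23*-deficient and WT stage 2 values of *Cdh1* nearly met (2.48 and 2.74), whereas WT stage 3 stood apart from both. The catenin genes *Ctnnb1* and *Ctnna1*, whose products tie E-cadherin to actin, were at 26.3 to 31.5 and 22.9 to 28.8 in *Med23*-deficient cells, and *Ctnna1* was above its WT range of 13.6 to 21.0. *Amica1* (*Jaml*), a junctional adhesion molecule of leukocytes, averaged 3.93 ± 1.49 in WT stage 2, 6.64 ± 1.37 in WT stage 3 and 1.27 ± 0.331 in *Med23*-deficient cells.

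Among proteins that bind actin or calcium, *Capg* (chr6:72544391-72562983), which caps the ends of actin filaments, was at 37.0, 35.4 and 30.1 in WT stage 2, at 34.3, 40.4 and 28.2 in WT stage 3, and at 8.77, 10.2 and 9.26 in *Med23*-deficient cells. The 2 WT stages of *Capg* did not separate (difference 0.00 in log2), and the *Med23*-deficient mean was 3.62 times lower than WT stage 2. *S100a4*, a calcium-binding protein that acts on non-muscle myosin, was at 17.1, 28.8 and 18.8 in WT stage 2, at 22.3, 31.3 and 13.0 in WT stage 3, and at 1.09, 7.69 and 8.42 in *Med23*-deficient cells. Its replicate 1 was far lower than the other 2 *Med23*-deficient libraries, and without that value the drop was 1.28 in place of 1.98. In the annotation, 51.7% of the exonic bases of *S100a4* are shared with another gene model on the same strand, so reads may have been split between the 2. Of 5 *S100a* genes reaching FPKM 2, *S100a4* was the 1 member; *S100a6* was at 18 to 24.2 in WT stage 2 and at 22.2 to 27.1 in *Med23*-deficient cells. *Actn1*, α-actinin, which crosslinks actin and binds integrin tails, was at 17.1, 10.5 and 18.1 in WT stage 2, at 12.3, 18 and 14.3 in WT stage 3, and at 9.56, 2.29 and 3.35 in *Med23*-deficient cells. Here replicate 1 was the high one, close under the lowest WT value. *Fhl2*, a LIM protein that binds integrin tails, averaged 4.80 ± 2.19, 12.7 ± 1.31 and 1.57 ± 0.907 in the same order of groups, and *Sntb1*, a syntrophin of the membrane skeleton, 3.06 ± 0.610, 3.83 ± 0.961 and 1.34 ± 0.731. These genes and the others given below by mean ± SD (n = 3) were picked after their values had been seen.

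Cytotoxic effectors formed a further set. *Gzmb* (chr14:56258856-56262260, minus strand), the granule protease granzyme B, was at FPKM 11.4, 14.4 and 10.2 in WT stage 2, at 149, 211 and 164 in WT stage 3, and at 4.20, 7.01 and 7.55 in *Med23*-deficient cells. *Prf1* (chr10:61297836-61304263), the pore-forming protein perforin, was at 2.01, 3.79 and 2.01 in WT stage 2, at 17.1, 14.7 and 17.5 in WT stage 3, and at 0.43, 0.72 and 0.55 in *Med23*-deficient cells. For both genes the 3 groups were apart and in the order WT stage 3, WT stage 2, *Med23*-deficient. The step from WT stage 2 to *Med23*-deficient cells was 1.91-fold for *Gzmb* and 4.59-fold for *Prf1* in mean FPKM, and the step between the WT stages 3.76 and 2.31 in log2(FPKM + 1). Of 7 granule and killing genes reaching FPKM 2, these were the 2 members. *Nkg7*, a granule membrane protein, was at 24.1 to 44.9 in WT stage 2 and 34.6 to 65.8 in *Med23*-deficient cells, *Fasl* at 9.34 to 19.0 and 14.6 to 35.7, so both overlapped WT stage 2. *Gzma* was listed at 0 in all 3 *Med23*-deficient and 2 of 3 WT stage 2 libraries. In WT stage 3, *Nkg7* was at 141 to 194, *Fasl* at 49.5 to 68.1 and *Gzma* at 17.6 to 41.4, each above every *Med23*-deficient value.

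*Il18rap* (chr1:40515362-40551705), the accessory chain of the IL-18 receptor, which with IL-12 drives IFN-γ, was at 12.9, 15.6 and 13.5 in WT stage 2, at 24.3, 30.8 and 34.3 in WT stage 3, and at 4.99, 5.83 and 10.6 in *Med23*-deficient cells. Replicate 3 was the highest of the *Med23*-deficient libraries here, and no 2 groups overlapped. *Il18r1*, the ligand-binding chain of the same receptor, was at 52.8, 83.4 and 91.9 in WT stage 2, at 30.6, 50.8 and 57.0 in WT stage 3, and at 15.1, 19.4 and 31.9 in *Med23*-deficient cells. It differed by more than the threshold (−1.76 against WT stage 2 and −1.05 against WT stage 3) but is no member, since *Med23*-deficient replicate 3 (31.9) exceeded WT stage 3 replicate 1 (30.6). The 2 chains were ordered differently between the WT stages, *Il18rap* being higher and *Il18r1* lower on average in stage 3. *Il12rb2*, a chain of the IL-12 receptor, was at 10.3 to 12.4 in WT stage 2, 45.0 to 51.6 in WT stage 3 and 14 to 25.9 in *Med23*-deficient cells.

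**Figure D3:**
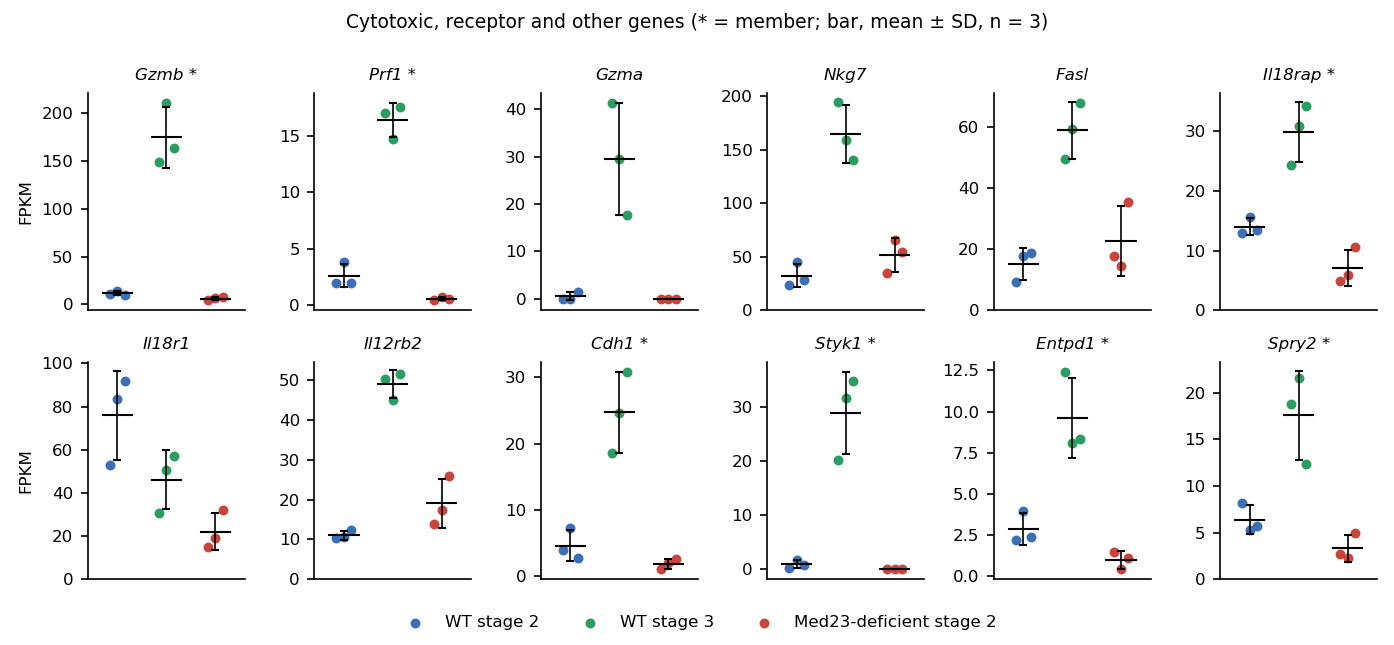
FPKM (linear axis, separate for each panel) of cytotoxic genes, cytokine receptor chains and other genes with 1 point per library and bars for the mean ± SD of 3 libraries; asterisks mark members. *Gzmb* and *Prf1* are lowest in *Med23*-deficient cells, while *Nkg7* (34.6 to 65.8) and *Fasl* (14.6 to 35.7) there overlap WT stage 2.

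Further members included lectin-like, GPI-anchored and other surface proteins. *Clec2d* (chr6:129180615-129186534), a lectin-like ligand of an inhibitory NK receptor, was the most abundant member, at 141, 126 and 113 in WT stage 2, at 211, 131 and 177 in WT stage 3, and at 65.7, 60.0 and 74.6 in *Med23*-deficient cells. Its relative *Clec2i* averaged 6.77 ± 2.35, 8.95 ± 2.63 and 3.06 ± 0.869, and both *Clec2* genes in the table were thus members. *Ly6c2* (chr15:75108158-75111970, minus strand), which encodes a GPI-anchored Ly6C protein of memory T cells and monocytes, was at 9.74, 13.0 and 4.16 in WT stage 2, at 53.2, 27.1 and 26.8 in WT stage 3, and at 0.67, 1.01 and 0.96 in *Med23*-deficient cells. The mean of *Ly6c2* was 10.2 times lower than in WT stage 2 and 40.5 times lower than in WT stage 3. Its near copy *Ly6c1* was at 1.07, 2.69 and 1.14, at 3.11, 2.28 and 2.06, and at 0, 0.92 and 0.31, and since the 2 sequences are alike, reads may have been assigned to the wrong one. *Ly6a*, in the same family, was at 8.02 to 41.7 over WT libraries and 23.8 to 35.1 in *Med23*-deficient cells.

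*Styk1* (chr6:131299142-131353597, minus strand), a receptor-like kinase also known as NOK, was at 0.24, 1.79 and 0.86 in WT stage 2, at 20.3, 31.7 and 34.8 in WT stage 3, and at 0.02, 0 and 0 in *Med23*-deficient cells. It was thus low in WT stage 2 already, and the *Med23*-deficient values were at or near 0. *Entpd1* (CD39), an ectoenzyme that degrades extracellular ATP, averaged 2.86 ± 0.964, 9.61 ± 2.44 and 0.993 ± 0.528, while *Nt5e* (CD73), which carries the product on to adenosine, was at 12.9 to 17.1 in WT stage 2 and 12.7 to 19.8 in *Med23*-deficient cells. *Gpr18*, a G protein-coupled receptor of lymphocytes, was at 17.0, 8.89 and 10.9, at 18.9, 9.84 and 13.3, and at 8.67, 5.23 and 5.61, so its *Med23*-deficient replicate 1 all but met the lowest WT value. *Gimap7*, a GTPase of the *Gimap* cluster, averaged 3.86 ± 0.956, 5.68 ± 2.44 and 1.59 ± 0.436. The other 7 *Gimap* genes were no members, and the family median was 0.24 higher in *Med23*-deficient than in WT stage 2 cells on the log2 scale.

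A pair of neighbouring scavenger receptor genes ran in the other direction between the WT stages. *Cd163l1* (chr7:140218267-140231145), known from γδ T cells that make IL-17 (SCART1), was at 4.61, 6.17 and 8.26 in WT stage 2, at 0.81, 0.99 and 0.60 in WT stage 3, and at 0, 0.02 and 0 in *Med23*-deficient cells. *5830411N06Rik* (chr7:140247284-140300736), its relative 16139 bases away, was at 4.23, 2.98 and 7.27, at 0.85, 2.5 and 2.28, and listed at 0 in all 3 *Med23*-deficient libraries, the one member with no value above 0 there. Both stand with *Itgae* on a list of 18 genes of IL-17-type (NKT17) cells, 16 of which were matched. On that list 13 of 16 genes had every *Med23*-deficient value below every WT stage 2 value, as did 10.7% of all eligible genes. The 3 members among these 13 had to, by the rule, and the list was drawn up with earlier results known. In WT stage 3, 5 of the 16 were lower than in WT stage 2 by adjusted p (limma), as were 0.914% of all genes tested. The rule was met by 3 of the 16 and by 0.373% of eligible genes. The summed FPKM of the list was 126 to 170 in WT stage 2, 103 to 126 in WT stage 3 and 41.2 to 51.7 in *Med23*-deficient cells. Of this, *Itgae* alone gave 36.3 to 63.6, 67.4 to 85.4 and 4.93 to 9.49 in the same order of groups. It thus made up most of the sum in WT stage 3. The median difference of the list genes between WT stage 3 and WT stage 2 was −1.69 in log2(FPKM + 1), whereas *Itgae* was higher in WT stage 3. The part of a changed share of NKT17-type cells in these members was not tested.

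The signalling and other intracellular members came from several pathways. *Pde2a*, a phosphodiesterase that degrades cAMP and cGMP, was at 8.51, 8.80 and 10.9 in WT stage 2, at 18.3, 11.2 and 10.7 in WT stage 3, and at 0.93, 0.89 and 4.78 in *Med23*-deficient cells, where replicate 3 stood apart from the other 2. A second gene model on the same strand shares 64.3% of its exonic bases. *Appl2*, an endosomal adaptor, was at 6.25, 6.31 and 8.52, at 7.19, 7.42 and 9.45, and at 1.41, 0.49 and 1.86. *Ttc39c*, a protein with tetratricopeptide repeats, was at 5.0, 9.77 and 4.32, at 7.26, 5.68 and 7.20, and at 1.55, 1.19 and 2.23. For both, the WT groups overlapped and the *Med23*-deficient libraries lay under every WT library.

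*Ripk1*, a kinase of TNF receptor signalling, showed a small but even difference (11.3 ± 0.830 and 11.5 ± 1.70 in WT stage 2 and 3, 5.80 ± 0.593 in *Med23*-deficient cells), while *Ripk3* was at 18.7 to 20.5 in WT stage 2, 9.29 to 16.2 in WT stage 3 and 13.6 to 15.5 in *Med23*-deficient cells, below the first and overlapping the second. *Spry2*, an inhibitor of receptor tyrosine kinase signalling, averaged 6.40 ± 1.55, 17.6 ± 4.72 and 3.31 ± 1.42, whereas its relative *Spry1* was higher in every *Med23*-deficient library (1.96 to 2.82) than in any WT library (0 to 1.56). *Ptpn5*, a tyrosine phosphatase, averaged 3.91 ± 0.297, 5.77 ± 1.60 and 1.34 ± 0.110. The growth factor gene *Pdgfb* was at 0.91, 1.88 and 0.37, at 8.40, 4.31 and 4.80, and at 0, 0.21 and 0.10. *Kcnk5*, a potassium channel, averaged 2.18 ± 0.610, 2.80 ± 0.297 and 0.807 ± 0.241, and *Lrig3*, a membrane protein with leucine-rich repeats, was at 0.65, 0.96 and 1.06, at 2.27, 3.01 and 0.88, and at 0, 0 and 0.26.

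The membrane and lipid genes were *St8sia1*, the sialyltransferase that makes ganglioside GD3 (9.05 ± 1.44, 6.5 ± 1.27 and 2.09 ± 0.852), *Atp8b4*, a phospholipid flippase (16.2 ± 2.17, 21.2 ± 5.03 and 8.06 ± 2.03), and *Tspan9*, a tetraspanin (3.19 ± 1.09 and 1.78 ± 0.633 in WT stages 2 and 3, and 0, 0 and 0.12 in *Med23*-deficient cells). *Rcn1*, a calcium-binding protein of the endoplasmic reticulum, averaged 3.07 ± 1.14, 5.86 ± 1.20 and 0.710 ± 0.366. *Fibcd1*, which binds acetylated sugars such as chitin, averaged 1.67 ± 0.279 and 1.82 ± 0.540 in WT and was at 0.46, 0 and 0.51 in *Med23*-deficient cells.

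Genes of the nucleus and of RNA completed the group. *Ybx3*, a cold shock domain protein that binds DNA and RNA, averaged 18.2 ± 2.94, 25.4 ± 4.03 and 8.33 ± 1.54. The transcriptional repressor genes *Snai3* and *Tgif1* averaged 2.72 ± 0.947 and 2.09 ± 0.778 in WT stage 2 and 0.523 ± 0.496 and 0.457 ± 0.293 in *Med23*-deficient cells. *Zfp40*, a zinc finger protein, *Wdr4*, a subunit of a tRNA methyltransferase, *Endog*, a mitochondrial nuclease, and *Banf1*, which bridges DNA and the nuclear envelope, had drops of 0.84, 0.96, 1.05 and 0.81. Of the exonic bases of *Endog* and *Banf1*, 35.7% and 28.6% overlap a gene on the opposite strand. *Eif1a*, a translation initiation factor, rests on 1 library: it was at 6.41, 6.03 and 7.98, at 7.69, 8.41 and 6.13, and at 5.75, 0.11 and 5.90, and without the 0.11 its drop was 0.19. The remaining member is the gene model *Gm42715*, which shares 76.4% of its exonic bases with *Srcap* and was at 5.81, 7.39 and 16.6 in WT stage 2, at 8.77, 0.93 and 13.8 in WT stage 3, and at 0.55, 0.30 and 0.42 in *Med23*-deficient cells. Its WT values spread widely, the lowest of them standing near the *Med23*-deficient ones.

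The comparison of the WT stages was not part of the rule, although it reads 6 of the libraries that chose the members. It asks whether the genes low without *Med23* also change between stage 2 and stage 3. With limma on log2(FPKM + 1) over 20689 genes, 6 members were higher in WT stage 3 at an adjusted p of at most 0.05 (0.759% of all genes tested were) and 1 was lower (0.914% were). The shares over all genes are given as a description, because the rule read the same WT values and members had to be expressed in both WT stages. The higher ones were *Styk1* (3.97 ± 0.35 SE in log2, adjusted p = 0.0122), *Gzmb* (3.76 ± 0.18, adjusted p = 0.00368), *Prf1* (2.31 ± 0.22, adjusted p = 0.0160), *Cdh1* (2.25 ± 0.33, adjusted p = 0.0412), *Il18rap* (1.03 ± 0.15, adjusted p = 0.0412) and *Itgb1* (0.94 ± 0.13, adjusted p = 0.0346), and the lower one was *Cd163l1* (−2.0 ± 0.26, adjusted p = 0.0315). All 3 libraries of WT stage 3 lay on one side of all 3 of WT stage 2 for each of these 7 genes. With the replicate number as a block, 2 members were called, *Gzmb* and *Styk1*, and leaving out 1 WT library gave 1 to 4. *Gzmb* was called whichever library was left out, while *Cd163l1*, *Il18rap* and *Itgb1* were lost in each of the 6 cases. *Cdh1* passed without WT stage 2 replicate 2 only, *Prf1* passed without WT stage 2 replicate 1 or 2, and *Styk1* failed without WT stage 2 replicate 3 or WT stage 3 replicate 2 or 3.

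At a fold change of at least 2 with an unadjusted p of at most 0.05, 10 members were higher in WT stage 3 (1.7% of all genes tested were) and 2 were lower (1.9%). *Ly6c2*, *Pdgfb*, *Entpd1*, *Spry2* and *Fhl2* joined the higher ones here with differences of 1.92, 1.75, 1.46, 1.31 and 1.30 in log2, *Itgb1* did not reach 2-fold, and *5830411N06Rik* joined the lower ones (−1.01). In 16 members the 3 WT stage 3 values lay above all WT stage 2 values, against 7.36% of all genes, and in 3 below, against 10.4%. *Itgae* was among the 16 with a difference of 0.77 ± 0.23 SE and an adjusted p of 0.204 in limma. In all, 35 members had the higher mean in WT stage 3 and 12 in WT stage 2, and their median difference was 0.27, against −0.04 over eligible genes. Most of the genes tested are of lower abundance than the members. When the test was limited to the 11781 genes whose mean FPKM reached 1, 229 were higher and 267 lower, and 11 and 1 of these were members.

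The WT difference varied among the members. *Capg*, *S100a4*, *Actn1*, *Ripk1*, *Wdr4* and *Itga4*, among others, differed by at most 0.07 between the WT stages, and 28 members were neither called nor free of overlap between them. Most genes overlap likewise, since only 7.36% of all genes tested lay wholly higher and 10.4% wholly lower in WT stage 3. The difference plot sets these genes, which run down the vertical line at 0, beside the killing genes at far right and the scavenger receptors at lower left.

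**Figure D4:**
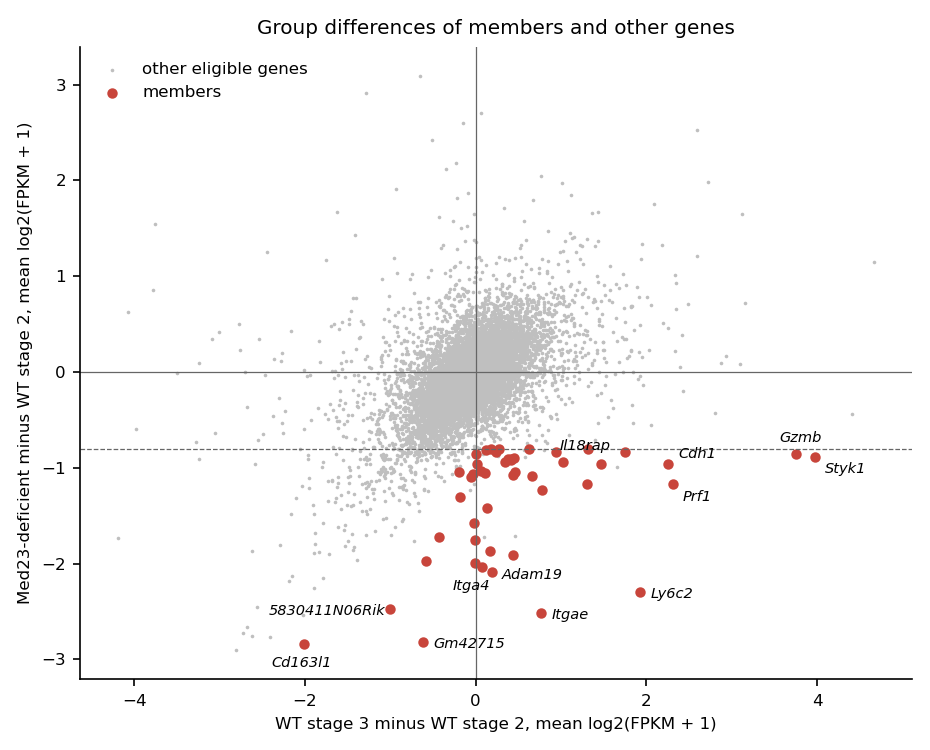
Each point is a gene, with the difference in mean log2(FPKM + 1) between WT stage 3 and WT stage 2 on the horizontal axis and between *Med23*-deficient and WT stage 2 cells on the vertical axis; red points are the 47 members, grey points other eligible genes, and the dashed line the threshold of the rule at −0.8. Both axes share the WT stage 2 libraries, which by itself tilts the grey cloud, so no correlation is read from it. Members reach from *Cd163l1* (−2.0 between WT stages) to *Styk1* (3.97).

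The members were also compared with lists of other cell states. Of 12 genes of IFN-γ-type (NKT1) cells, *Gzmb* was the 1 member, and 1 of 12 lay below every WT library (2.7% of eligible genes reaching FPKM 2 did). The summed FPKM was 255 to 344 in *Med23*-deficient and 234 to 299 in WT stage 2 cells, against 993 to 1057 in WT stage 3. In the WT comparison 10 of the 12 were higher and none lower by adjusted p, against 0.759% higher and 0.914% lower of all genes tested. Of 11 genes of IL-4-type (NKT2) cells none was a member, and the sums were 409 to 542 in *Med23*-deficient, 443 to 509 in WT stage 2 and 124 to 169 in WT stage 3 cells. No gene of the lists for cell division (29 genes), DNA replication (32), immediate early response (19) or Mediator (30) was a member either. The rule took 0.373% of eligible genes, so an absence of members from lists this short says little about them. Below every WT stage 2 library lay 19 of the 29 cell division and 22 of the 32 DNA replication genes. So did 1 of the 19 immediate early and 5 of the 30 Mediator genes, and 10.7% of all eligible genes. Below every WT library lay 1 cell division, 4 DNA replication and 1 Mediator gene, against 2.7% of eligible genes reaching FPKM 2. The cell division sum was 14.2 to 15.4 in *Med23*-deficient cells, 79.8 to 103 in WT stage 2 and 9.12 to 23.5 in WT stage 3, and the DNA replication sum 134 to 144, 238 to 256 and 139 to 174.

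Markers of cells a sort could carry along were read in the same libraries. Of the 9 genes of CD4+CD8+ thymocytes the sum was 4.36 to 6.47 in *Med23*-deficient and 5.84 to 9.55 in WT cells. The B cell list was at 0.54 or less in every gene but *Ighm* (85.6 to 104 in *Med23*-deficient cells and 31.2 to 55.1 in WT), with *Cd79a* at 0.48 or less. Myeloid sums were 10.01 to 12.8 in *Med23*-deficient and 11.9 to 21.2 in WT cells, stromal sums 8.08 to 10.8 and 1.97 to 9.52, and the 1 erythroid gene matched stayed under 1. On the γδ T cell list, 5 of the 8 genes matched lay below every WT library, and the sum was 10.1 to 13.1 in *Med23*-deficient cells against 405 to 494 in WT. Of eligible genes reaching FPKM 2, which hold no T cell receptor segments, 2.7% lay below every WT library. The 5 were T cell receptor γ segments. *Sox13* was at 0 to 5.07 in WT and 2.10 to 4.32 in *Med23*-deficient cells, and *Trdc*, the δ chain constant gene, at 0.38 or less in all 9 libraries. The part of these cells in the members' difference was not tested.

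Of the 47 members, 9 (19.1%) had another member within 1 Mb, and 8.0% of eligible genes lay within 1 Mb of a member. Besides the *Ly6c* and scavenger receptor pairs, the neighbours were on chromosome 6, which held 8 of the 47 members (17.0%, against 4.73% of eligible genes). *Clec2i*, *Clec2d*, *Styk1* and *Ybx3* lie in the region of the NK gene complex, with *Tspan9* 743994 bases from *Clec2i*. From *Clec2i* to *Ybx3*, 23 protein-coding genes reached FPKM 2, and 12 of them had every *Med23*-deficient value below every WT value and none above. The shares over eligible genes reaching FPKM 2, which hold no *Klr* genes, were 2.7% below and 2.82% above. The 12 were the 4 members, which had to be below by the rule, and 8 of 16 *Klr* genes, which the rule left out by name. *Klrb1c* (chr6:128778485-128789215), also below every WT value, lies before *Clec2i* and so outside this stretch. Of the other 3 genes there, *Cd69* was at 1.72 to 4.69 in WT stage 2 and 3.84 to 9.86 in *Med23*-deficient cells, *Magohb* at 2.03 to 5.13 and 1.15 to 2.84, and *Gabarapl1* at 0.52 to 0.97 and 0.05 to 0.67, so all 3 overlapped. The stretch was set after the positions of the members had been seen.

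The edge of the group was not sharp. Just inside the difference threshold were *Lrig3* and *Gpr18* (0.80 each), and just outside *Naa38* (0.80, unrounded 0.79976) and *Sephs1* (0.799), both with *Med23*-deficient values below every WT value. *Eif1a* and *Gpr18* were the members nearest to overlap (5.90 against 6.03 and 8.67 against 8.89), and *Nme3* (3.09 in both groups) and the gene model *Gm20431* (0 in both) stood just outside. In all, 14 eligible genes differed by at least 0.8 from both WT stages but overlapped, and 220 did not overlap but differed by less. The mirrored rule, with *Med23*-deficient cells higher than both WT stages, selected 59 genes. Without its lowest *Med23*-deficient value, each of 18 members, *Gzmb*, *Cdh1*, *Il18rap* and *Itgb1* among them, had a drop under 0.8.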

How the data were processed

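RNA of thymic iNKT cells was sequenced from strand-marked total RNA libraries. According to the methods of the study, reads were trimmed with Trimmomatic 0.36, aligned to mm10 with HISAT2, kept when they hit at most 2 loci, and quantified over GENCODE vM12 with StringTie. The authors deposited FPKM per gene, rounded to 2 decimals, for each of the 9 libraries. Read counts are not in the table, so sequencing depth is unknown here, and intervals for counting error could not be computed.

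From these values log2(FPKM + 1) was computed with pandas 2.3.3, and the rule was applied to all rows. WT stage 3 was compared with WT stage 2 by limma 3.58.1 in R 4.3.3 (trend, 2-sided, Benjamini-Hochberg) over genes above 0 in at least 1 of the 6 libraries, after the script had been tested on simulated data. Members and gene lists were chosen with earlier results of these data known. Members given library by library were the 12 with the largest drop, the 8 most abundant in WT, those on a list, those called between WT stages, those at 0 in all *Med23*-deficient libraries and those nearest each threshold; the others were added later. Exon overlaps come from GENCODE vM21 and promoters from RefSeq. Alternatives changed the pseudocount, filter, scaling, threshold, model and libraries.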

Additional observations from a re-analysis of the deposited data

How the results depend on the processing

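The choice of members depended on the settings of the rule. It selected 93 and 95 genes with pseudocounts of 0.1 and 0.01, all 47 members among them, and 25 with a difference threshold of 1. Leaving out 1 library gave 44 to 84 genes, the 84 without *Med23*-deficient replicate 3, with 35 to 47 members kept. TPM scale gave 53, a common upper quartile 35 and quantile normalization 37. The TPM scale divides by the summed FPKM of a library, most of which is *Gm23935*. Of the 47, 25 were kept with each library left out in turn, 32 under the 3 other scalings, 23 under all these alternatives but the threshold of 1, and 21 with that threshold included. *Itgae*, *Itga4*, *Adam19*, *Capg* and *Prf1* were among the 21. *Gzmb*, *Itgb1* and *Ripk1* were among those lost under both the common upper quartile and quantile normalization. *Gzmb* was also lost without WT stage 2 replicate 2 or without *Med23*-deficient replicate 1. With the lowest *Med23*-deficient value of each gene removed, an alternative chosen after seeing the data, 29 members kept a drop of at least 0.8. The scalings shift the median of eligible genes whose mean FPKM reached 1 between *Med23*-deficient and WT stage 2 cells from −0.06 to −0.17 (TPM), 0.03 (upper quartile) and 0.00 (quantile).

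Between the WT stages, 346 genes were called by adjusted p, and 224 on the TPM scale (38.4% of them higher, against 45.4%), 295 with the upper quartile (54.6% higher), 5 with the linear model after Ballgown, 626 with all 9 libraries in 1 fit, and 22 to 137 with 1 library left out. Members called were 12 with a mean FPKM of at least 1, 0 after Ballgown (17 members had an unadjusted p of at most 0.05 in limma, and 7 passed fold and p after Ballgown, against 12), and 1 to 4 with 1 library left out, against 7. By fold and p, 1423 and 1452 genes were called with the smaller pseudocounts, against 745. The 7 called members kept their direction under all 16 alternatives; the adjusted p of *Gzmb* stayed between 0.000375 and 0.162 and was past the threshold in 15 of them, that of *Il18rap* in 6.

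The replicate block left 19 genes and 2 members called. Replicate numbers do not pair the libraries by the labels, and the deviations of same-numbered libraries correlated at 0.08, 0.03 and 0.16 between the WT stages, so the pairing was not used; replicate 3 libraries of the 3 groups deviated together (0.14 to 0.27).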

Other observations

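Rows that met the same numbers but were left out by type or name numbered 42, beside the 47 members among 89 in all. They were 12 *Hist* and 7 *Klr* genes and 23 rows that are not protein_coding, 9 of these T cell receptor genes of the γ locus on chromosome 13. *Tcrg-C2*, a γ constant segment, was at FPKM 134, 124 and 119 in WT stage 2, at 138, 132 and 121 in WT stage 3, and at 1.48, 0.23 and 0.41 in *Med23*-deficient cells, and *Trgv2* at 99.9, 111 and 70.3, at 112, 112 and 81.6, and at 0, 0 and 0.34. These 2 drops, 6.28 and 6.40 in log2(FPKM + 1), exceed those of all 47 members.

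Among the NK receptor genes, *Klra9* was at 13.6, 7.92 and 10.2 in WT stage 2, at 351, 203 and 253 in WT stage 3, and at 0, 0 and 0.07 in *Med23*-deficient cells. *Klrd1* was at 4.66, 11 and 12.8, at 78.0, 77.6 and 68.5, and at 2.72, 1.08 and 0.61. *Klrb1c*, which encodes NK1.1, the marker that separated the sorted stages, was at 16.3, 26.2 and 7.65, at 95.1, 57.3 and 72.7, and at 4.60, 2.61 and 3.04. *Klr* genes are a family of close copies, so reads may have been split among them. All genes named here were picked after their values had been seen.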
